A study of Mus musculus with 10 samples.

Results

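Cytochrome P450 families 1 to 4, the haem enzymes with which the liver oxidises drugs, steroids and fatty acids, were examined as 54 genes in the livers of mice given an antisense oligonucleotide (ASO) against miR-122. The 54 were all genes with a tested array probe annotated to that gene alone and a symbol starting with Cyp1, Cyp2, Cyp3 or Cyp4 and a subfamily letter, with 1 gene left out by rule, and they stood among 18012 genes measured in all. Each gene was read from its probe with the highest mean. The 5 ASO mice, labelled male C57Bl/6, were injected intraperitoneally 2 times a week for 4 weeks with 50 mg/kg of a 2′-O-methoxyethyl phosphorothioate oligonucleotide, while the 5 controls were given saline at the same times. The saline labels state no sex or strain. Livers were collected 2 days after dosing ended, and each had its own 1-colour CodeLink array. Because the control was saline and not another oligonucleotide, blocking miR-122 and exposure to the oligonucleotide chemistry cannot be told apart, and in whole liver fewer cells of a type and less RNA per cell cannot be told apart either.

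P450 enzymes of these families sit in the endoplasmic reticulum, take electrons from P450 reductase and cytochrome b5, and insert an oxygen atom into their substrates. Families 1 to 3 handle mostly foreign compounds and steroids, and family 4 handles mostly fatty acids and eicosanoids. Many of the genes are switched on by ligand-activated receptors: the aryl hydrocarbon receptor (AhR) for family 1, the constitutive androstane receptor (CAR) and the pregnane X receptor (PXR) for Cyp2b, Cyp2c and Cyp3a, and PPARalpha for Cyp4a. In mice, several members also differ between male and female liver.

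Promoter windows from RefSeq on build GRCm38.p6 ran from 250 bases before the annotated start site to 50 bases after it. They were available for 44 of the 54 genes (50 windows). The sequence TATAAA, searched on both strands, was in 20 of the 50 windows (40.0%), against 13.6% of all 32851 promoter windows. On the gene's own strand and starting 20 to 35 bases before the start site, a position chosen after the matches were seen, it was in 7 member windows (14%) and in 1.84% of all windows. The AhR core sequence GCGTG, searched on both strands, was in 12 member windows (24.0%) and in 32.4% of all windows. Direct repeats of the nuclear receptor sequence AGGTCA with 1 base or with 4 bases between the copies were in 0 of the member windows on either strand, and in 0.0396% and 0.0152% of all windows. The HNF1 palindrome, also searched on both strands, was in 0 of the member windows and in 0.0609% of all windows. Sequences this rare would seldom fall in 50 windows, so these counts of 0 say little. Sites farther from the start site were not searched. Windows of 3 classical liver members are shown because each holds TATAAA just before its start site and 1 of them also holds the AhR core. Capitals mark TATAAA and GCGTG, and the windows lie at chr9:57697363-57697662 (plus strand, Cyp1a1), chr9:57683606-57683905 (minus strand, Cyp1a2) and chr7:140763569-140763868 (plus strand, Cyp2e1).
Cyp1a1: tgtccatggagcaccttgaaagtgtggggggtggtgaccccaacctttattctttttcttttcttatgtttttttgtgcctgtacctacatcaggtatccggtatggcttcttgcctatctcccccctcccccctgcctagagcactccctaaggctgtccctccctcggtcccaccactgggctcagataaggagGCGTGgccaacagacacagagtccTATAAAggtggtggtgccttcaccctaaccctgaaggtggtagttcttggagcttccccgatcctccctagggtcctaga
Cyp1a2: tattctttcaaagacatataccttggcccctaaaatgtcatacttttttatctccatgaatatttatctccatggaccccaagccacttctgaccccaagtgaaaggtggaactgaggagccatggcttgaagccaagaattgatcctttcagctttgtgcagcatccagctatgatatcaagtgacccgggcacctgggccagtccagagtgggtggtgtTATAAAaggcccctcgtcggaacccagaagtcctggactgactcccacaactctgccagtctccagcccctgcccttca
Cyp2e1: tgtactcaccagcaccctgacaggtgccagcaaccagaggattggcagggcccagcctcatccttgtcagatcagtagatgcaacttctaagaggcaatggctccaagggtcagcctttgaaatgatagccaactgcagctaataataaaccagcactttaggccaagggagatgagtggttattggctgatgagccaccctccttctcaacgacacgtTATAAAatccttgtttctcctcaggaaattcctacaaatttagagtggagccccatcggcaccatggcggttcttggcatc
The 7 genes with TATAAA at that position had a median log2 fold change of 0.10 (ASO minus saline, range -0.33 to 0.43), and the other 37 genes with a window had -0.033 (range -1.04 to 1.28).

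All values below are log2 of the deposited array intensities, with low values set to a floor of -2.38, and levels of different genes are not compared because each probe has its own brightness. The median of all probes served as a rough guide to whether a probe gave signal, and on that guide 9 of 9 measured hepatocyte markers lay above it, against 0 of 4 pancreas and 0 of 5 kidney markers. Of the hepatocyte markers 7 were higher and 2 lower in ASO livers with a median of 0.41, and their summed intensity ran from 6730 to 9013 in ASO livers and from 3527 to 7427 in saline livers. The summed intensity of 11 Kupffer cell and macrophage markers, 3 higher and 8 lower with a median of -0.31, ran from 61.6 to 353 in ASO livers and from 155 to 363 in saline livers, and the part of either list in the P450 values was not tested. Medians were 0.16 for 8 endothelial, -0.25 for 7 stellate, -0.016 for 4 bile duct, -0.24 for 9 lymphocyte and 0.11 for 3 red blood cell markers, and -0.17 and 0.066 for the pancreas and kidney markers. A pair of arrays is set apart in what follows. Saline replicate 1 had a brightest value of 542, against 1198 to 2333 on the other arrays. On the log2 scale its brightest value was 9.08, and Cyp2e1 and Cyp2f2 lay at 8.86 and 8.92 there. On ASO replicate 2 the deviations of the 54 genes from their means had an SD of 0.71, against 0.42 to 0.53 on the other 9 arrays, and it was the highest array for 12 genes and the lowest for 7.

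No P450 gene of families 1 to 4 passed the test for a difference between ASO and saline livers. After Benjamini-Hochberg adjustment of the limma p-values of all 36088 probes, 0 of 54 genes had an adjusted p under 0.05, where 0.0637% of all probes did (0.0305% higher and 0.0333% lower), and the smallest adjusted p was 0.241. At an unadjusted p under 0.05 there were 7 genes (13.0%, against 11.2% of all probes), of which 3 were higher and 4 lower in ASO livers (4.58% and 6.66% of all probes). That share is close to the background. Among the 45 genes above the median level of all probes it was 8.89%, against 14.1% of all probes above that level. Cyp2b10, Cyp2b13 and Cyp2s1, 3 of the 7 genes, lay below that level. Without ASO replicate 3 the number of genes at an unadjusted p under 0.05 was 4 (7.41%, against 9.22% of all probes). Without saline replicate 5 it was 10 (18.5%, against 11.1% of all probes).

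Higher and lower values were about equally common. In ASO livers 28 were higher and 26 lower (48.1% lower, against 50.5% of all probes), with a median log2 fold change of 0.066, against -0.0029 over all probes. Among the 45 brighter genes, 48.9% were lower with a median of 0.066, against 59.9% and -0.085 for all probes above that level. Of all 18012 genes, each read from its brightest probe as the P450s were, 55% were lower with a median of -0.040. Above the median level of all probes those values were 62.6% and -0.11. A fold of over 1.5 in either direction was seen in 7 P450 genes (13.0%, against 12.0% of all probes), and 3 of them, all Cyp2b genes, exceeded 2-fold. Of these 3, Cyp2b10 (mean -0.064) and Cyp2b13 (mean -1.64) lay below the median level of all probes (0.031). The groups did not overlap in 1 gene, Cyp4v3 (1.85%, against 2.37% of all probes, of which 0.939% higher and 1.43% lower).

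**Figure D1:**
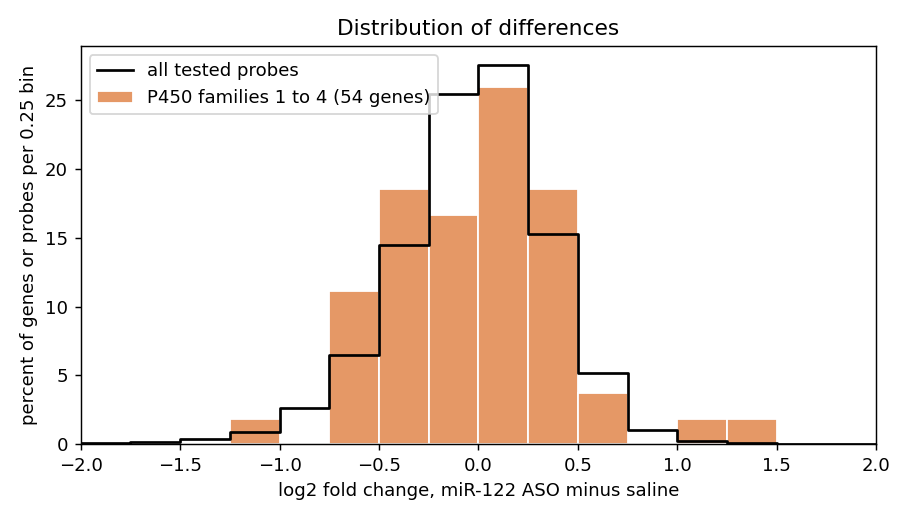
Share of genes or probes (y axis, percent) in each 0.25-wide step of log2 fold change, ASO minus saline (x axis), with orange bars for the 54 P450 genes and a black line for all 36088 tested probes. Of the 54 genes, 43 lie within 0.5 of 0, and the bar just below 0 stands lower than the line; a few probes lie beyond the plotted range.

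The data set bounds on how large a difference could have gone unseen, but only for genes whose probe gave signal. The median level is a rough guide to that and does not show that a probe read its own gene's transcript. For 32 of the 54 genes the 95% interval of the difference lay inside a 2-fold change in either direction, and for 8 of them inside a 1.5-fold change. For the other 22 genes the interval reached past 2-fold, so a difference of that size lay within the error of 5 mice a group. Each interval is that of 1 probe and need not hold for another probe of the gene. Cyp4f14 was among the 32 by its brighter probe (-0.83 to 0.16), but its second probe had an interval of -1.83 to -0.30. Among the 45 genes above the median level of all probes, 28 intervals lay inside 2-fold and 6 inside 1.5-fold. The 6 include Cyp2b19, an epoxygenase of skin, and Cyp2g1, a P450 of the olfactory mucosa. Their narrow intervals may reflect a lack of liver transcript and are not read as bounds. Among the 9 genes at or below the median level, 4 intervals lay inside 2-fold and 2 inside 1.5-fold. There a narrow interval may reflect a lack of signal and is not read as a bound. Cyp3a16, with an interval of -0.26 to 0.39, lay at the floor on 5 arrays.

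**Figure D2:**
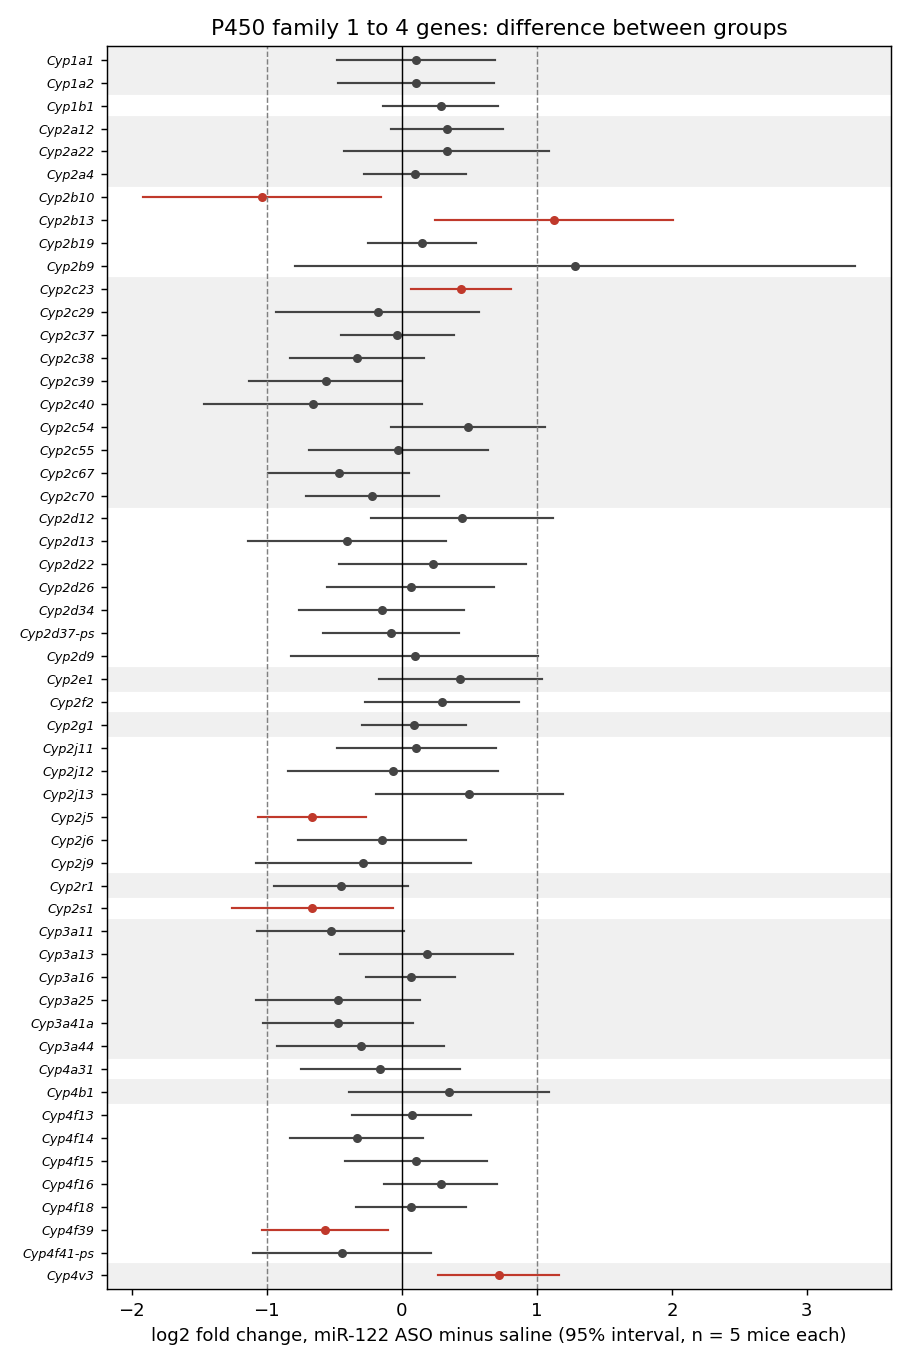
Log2 fold change of each of the 54 P450 genes, ASO minus saline, with its 95% interval from limma (n = 5 mice each), by subfamily on alternating shading. Dashed lines mark a 2-fold change, and red marks the 7 genes with an unadjusted p under 0.05, none of which passed after adjustment.

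The 3 family 1 genes were higher in ASO livers by 0.10 to 0.29 on the log2 scale, within the spread between mice. Cyp1a2, a main oxidiser of caffeine and aromatic amines in liver and an AhR target, had 7.92, 7.07, 8.10, 7.57 and 8.63 in ASO livers, against 7.94, 8.05, 7.60, 7.64 and 7.55 in saline livers. The ASO values spread on both sides of the saline values. Its log2 fold change was 0.10 (SE 0.26, 95% interval -0.48 to 0.68, limma adjusted p = 0.914). Cyp1a1, the most AhR-inducible P450, averaged 2.36 ± 0.52 in ASO livers and 2.26 ± 0.36 in saline livers (SD, n = 5 each), a log2 fold change of 0.10 with an interval of -0.48 to 0.69. Cyp1b1, which acts mainly outside the liver, had 0.29 (SE 0.19), and 0.16 without saline replicate 4. With Cyp2s1, an AhR-responsive epithelial P450, 4 AhR-responsive members were measured, 3 of them higher and 1 lower.

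In Cyp2s1 itself the levels were -1.08, -1.52, -1.74, -1.57 and -0.18 in ASO livers, against -0.71, -0.45, -0.60, -0.35 and -0.67 in saline livers. The first 4 ASO livers lay below all saline livers and the fifth above them. The difference on the log2 scale was -0.66 (SE 0.27, limma adjusted p = 0.401).

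Of the 4 Cyp2b genes, 3 had the widest spans between mice of all 54 P450 genes, and Cyp2b19 had a narrow one (1.63-fold). Cyp2b9, a female-biased gene of adult mouse liver, had 0.48, 4.71, 2.83, 0.93 and 4.27 in ASO livers, against 3.12, -0.48, -0.35, 2.23 and 2.30 in saline livers. In both groups some livers were high and some low, with a 36.7-fold span over the 10 mice, the widest of the 54 genes. The log2 fold change of 1.28 had an interval of -0.79 to 3.36 (limma adjusted p = 0.638). It was 0.76 without ASO replicate 2, 0.82 without saline replicate 2 and 0.85 without saline replicate 3, and rose to 1.82 without ASO replicate 1.

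Cyp2b13, a close relative of Cyp2b9 and also female-biased, had -1.89, 0.41, -1.18, -2.02 and -0.73 in ASO livers, against -2.18, -2.38, -2.38, -2.38 and -1.72 in saline livers. It lay at the floor in 3 saline livers, so the size of its difference depends on where the floor was set. The ASO livers with the 3 highest values, replicates 2, 3 and 5, were also the 3 highest ASO livers for Cyp2b9. The log2 fold change was 1.12 (SE 0.40, limma adjusted p = 0.339), and 0.75 without ASO replicate 2.

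Cyp2b10, the classical CAR target, had -0.29, 0.27, -0.85, -1.76 and -0.28 in ASO livers, against 1.56, -0.13, -0.05, 0.29 and 0.61 in saline livers. In 4 of 5 ASO livers it lay below all saline livers, and ASO replicate 2 lay among them. It differed by -1.04 on the log2 scale (SE 0.40, limma adjusted p = 0.372), and -0.76 without saline replicate 1. Cyp2b19, an epoxygenase of skin, had 0.15 (interval -0.25 to 0.55). Probes of such similar genes may take up each other's transcripts, and probe sequences were not used here.

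**Figure D3:**
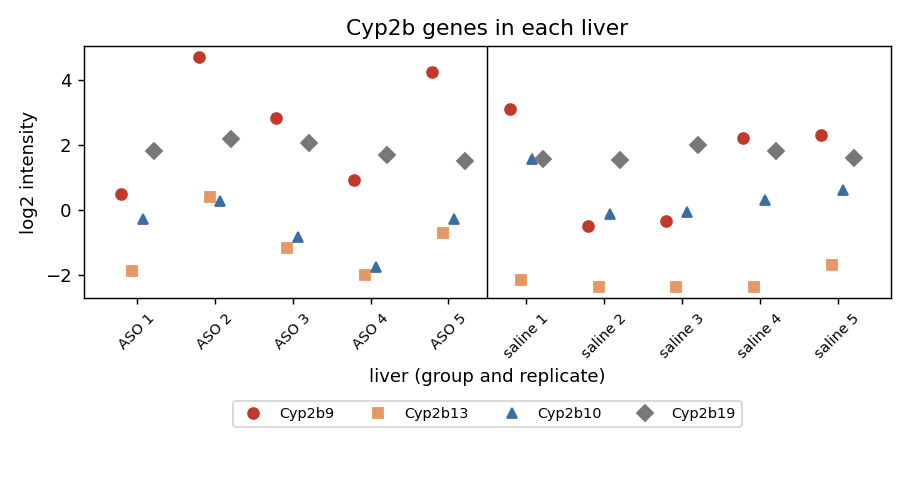
Log2 intensity (y axis) of the 4 Cyp2b genes in each of the 10 livers (x axis), ASO livers on the left and saline livers on the right. Cyp2b9 runs from -0.48 to 4.71 and is high in some livers of both groups, while Cyp2b19 stays between 1.50 and 2.20.

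All 3 Cyp2a genes, which oxidise steroids and coumarin-like compounds, were slightly higher in ASO livers, and none passed. Cyp2a4, a steroid hydroxylase with female bias, averaged 1.16 ± 0.26 in ASO livers and 1.06 ± 0.17 in saline livers (SD, n = 5 each). For Cyp2a12, a testosterone hydroxylase, the log2 fold change was 0.34 (SE 0.19), with a limma adjusted p of 0.537, and 0.22 without ASO replicate 3.

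The Cyp2c subfamily oxidises drugs and arachidonic acid, and its 10 measured genes all lie on chromosome 19. Of these, 8 were lower (80%, against 50.5% of all probes) and 2 higher, with a median log2 fold change of -0.20. All 10 lay above the median level of all probes, where 59.9% of probes were lower. At an unadjusted p under 0.05 there was 1 gene (10%, against 11.2% of all probes). That gene was Cyp2c23, an epoxygenase of arachidonic acid. Its levels were 8.72, 8.82, 9.09, 8.90 and 9.01 in ASO livers, against 8.17, 8.34, 8.43, 8.85 and 8.56 in saline livers. Only saline replicate 4 reached into the range of the ASO livers, and the log2 fold change was 0.44 (SE 0.17, limma adjusted p = 0.372). Saline replicate 1, the array with the dimmest maximum, was the lowest for Cyp2c23. Without that array the log2 fold change was 0.36, with an unadjusted p of 0.0618 in limma. Cyp2c29, a CAR-inducible P450 prominent in mouse liver, spanned 7.61 to 9.33 with a median of 8.51 in ASO livers, against 7.94 to 9.36 with a median of 8.86 in saline livers. Its log2 fold change was -0.18 (SE 0.34), and it was 0.072 without ASO replicate 1. Cyp2c70, which makes the muricholic bile acids of mice and is named here because of its values, had -0.22 (SE 0.23). It was -0.43 without saline replicate 1, the lowest of all 10 livers for this gene, and -0.13 without saline replicate 4.

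In Cyp2d, a subfamily of 7 measured genes on chromosome 15 whose human counterpart oxidises many basic drugs, 4 were higher, 3 were lower and the median was 0.066. Cyp2d26 averaged 8.60 ± 0.53 in ASO livers and 8.53 ± 0.43 in saline livers (SD, n = 5 each). Cyp2d12 was higher by 0.45 on the log2 scale (SE 0.31), with a limma adjusted p of 0.611, and by 0.23 without ASO replicate 2. Cyp2d9, a steroid hydroxylase with male bias and the 1 measured gene of 3 on its list, named after its values were seen, had 8.99, 7.95, 8.26, 8.05 and 9.21 in ASO livers, against 8.77, 8.90, 8.84, 6.78 and 8.70 in saline livers. Its log2 fold change of 0.096 (SE 0.42) was -0.31 without saline replicate 4, the lowest liver.

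Cyp2e1, which oxidises ethanol and paracetamol in pericentral hepatocytes, had 10.15, 10.58, 10.28, 9.89 and 10.38 in ASO livers, against 8.86, 9.64, 10.05, 10.28 and 10.29 in saline livers. Saline replicate 1, the array with the dimmest maximum, was the lowest. Its difference was 0.43 on the log2 scale (SE 0.28, limma adjusted p = 0.580) and 0.19 without that array. Quantile normalization gave 0.14 and cyclic loess 0.45. Cyp2f2, a naphthalene oxidiser of periportal hepatocytes and lung, was also lowest there, with 8.92 on saline replicate 1 and 9.53 to 10.23 in the other saline livers, against 9.62 to 10.43 in ASO livers. Its log2 fold change was 0.30 (SE 0.26) with that array and 0.091 without it, while quantile normalization gave 0.017 and cyclic loess 0.31. Cyp2g1, a P450 of the olfactory mucosa, had 0.087 (interval -0.30 to 0.47).

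Cyp2j5, an epoxygenase of arachidonic acid in mouse kidney and liver, had the smallest p of the 54 genes. Its levels were 5.07, 5.04, 4.97, 5.70 and 5.21 in ASO livers, against 5.85, 5.87, 5.91, 6.10 and 5.57 in saline livers. The groups overlapped through ASO replicate 4 and saline replicate 5 alone. The log2 fold change was -0.66 (SE 0.18, interval -1.06 to -0.26, unadjusted p = 0.00369, limma adjusted p = 0.241), and it stayed between -0.79 and -0.60 when any 1 array was left out. Of the 6 measured Cyp2j genes, on chromosome 4, 2 were higher and 4 lower, with a median of -0.11. Cyp2r1, the vitamin D 25-hydroxylase, averaged 5.59 ± 0.32 in ASO livers and 6.04 ± 0.38 in saline livers (SD, n = 5 each), with a limma adjusted p of 0.489, and quantile normalization moved the log2 fold change of -0.45 to -0.27.

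**Figure D4:**
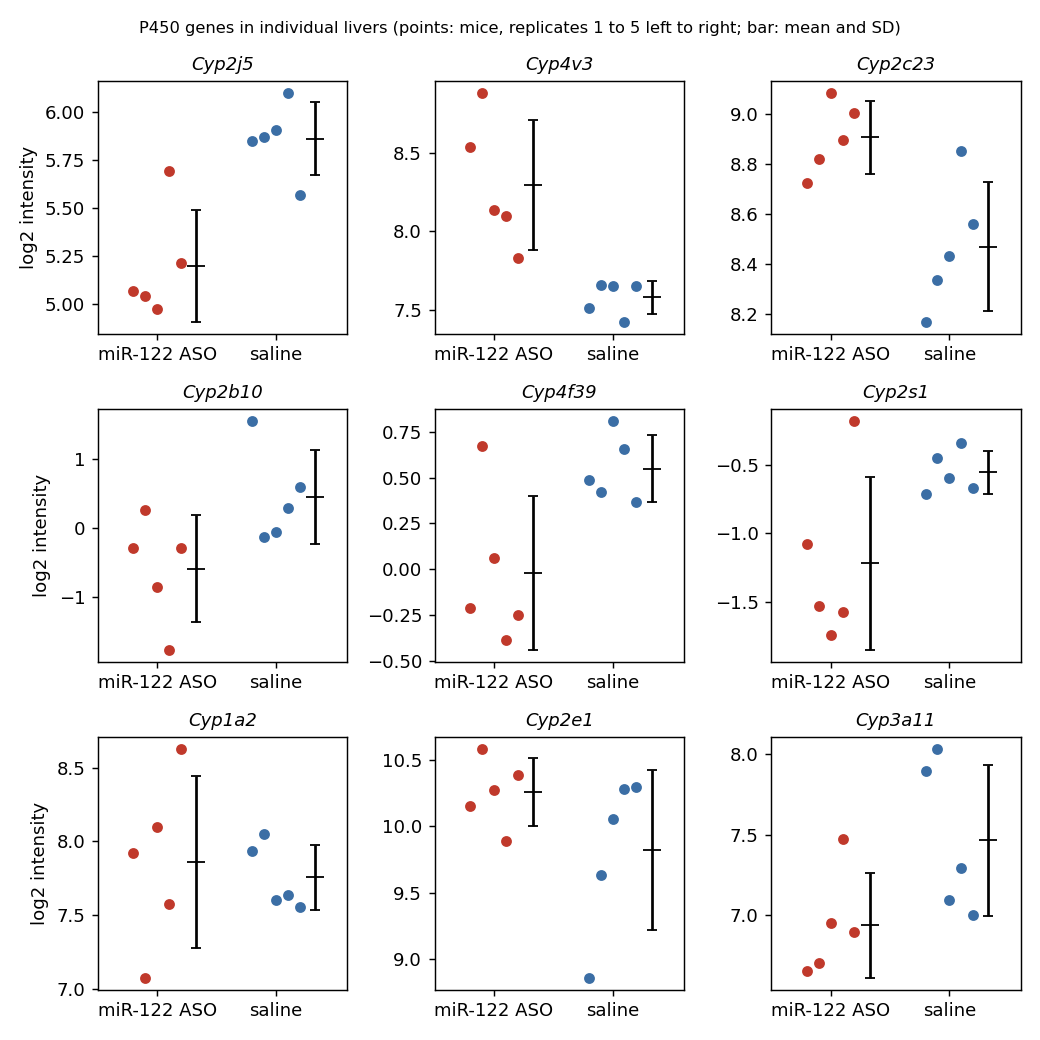
Log2 intensity (y axis, its own scale in each panel) of 9 P450 genes in single livers, ASO on the left and saline on the right, with a black bar for the mean and SD of 5 mice. Cyp4v3 is the 1 gene whose groups do not overlap, and the low point of Cyp2e1 is saline replicate 1 at 8.86.

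The Cyp3a subfamily on chromosome 5 is the mouse counterpart of the main human drug oxidisers. Of its 6 genes, 4 were lower (66.7%, against 50.5% of all probes) and 2 higher, with a median log2 fold change of -0.39. In limma 0 of the 6 had an unadjusted p under 0.05, against 11.2% of all probes. Cyp3a11, the main PXR target among them, had 6.65, 6.71, 6.95, 7.48 and 6.90 in ASO livers, against 7.89, 8.03, 7.10, 7.29 and 7.0 in saline livers. ASO replicate 4 lay among the saline livers and the other 4 ASO livers below all of them, and the log2 fold change was -0.53 (SE 0.25, interval -1.07 to 0.02, limma adjusted p = 0.459). Cyp3a25, another liver Cyp3a, averaged 7.62 ± 0.40 in ASO livers and 8.09 ± 0.53 in saline livers (SD, n = 5 each). Its log2 fold change was -0.47, and leaving out ASO replicate 2 gave -0.30, leaving out saline replicate 1 gave -0.33. Of the 6 measured members on the list of CAR- and PXR-responsive genes, 1 was higher and 5 lower, with a median of -0.11 and Cyp2b10 as the 1 at an unadjusted p under 0.05 (16.7%, against 11.2% of all probes).

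Family 4 had 10 measured genes, 6 of them higher, 4 lower, and a median log2 fold change of 0.070. Cyp4v3, the counterpart of human CYP4V2, a fatty acid hydroxylase, had 8.54, 8.88, 8.13, 8.10 and 7.83 in ASO livers, against 7.51, 7.66, 7.65, 7.42 and 7.65 in saline livers. Every ASO liver lay above every saline liver. It was higher by 0.72 on the log2 scale (SE 0.20, interval 0.27 to 1.17, unadjusted p = 0.00455, limma adjusted p = 0.25), and it stayed between 0.57 and 0.83 when any 1 array was left out. A second probe of the gene gave 0.18 (SE 0.26, unadjusted p = 0.506 in limma), so the difference rests on 1 probe.

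Cyp4f39, the counterpart of human CYP4F22, which hydroxylates very long fatty acids in skin, had -0.21, 0.67, 0.06, -0.38 and -0.25 in ASO livers, against 0.49, 0.42, 0.81, 0.66 and 0.37 in saline livers. ASO replicate 2 was the 1 ASO liver within the saline range. Its difference was -0.57 (SE 0.21, limma adjusted p = 0.360), and a second probe gave 0.13. Cyp4f15, of the subfamily that breaks down leukotriene B4, averaged 6.95 ± 0.39 in ASO livers and 6.85 ± 0.38 in saline livers (SD, n = 5 each). Cyp4b1, a P450 best known from lung, had 0.35 (SE 0.34), with 0.61 when ASO replicate 2 and 0.16 when saline replicate 5 was left out. Cyp4a31, a PPARalpha-responsive fatty acid hydroxylase, had -0.16 (SE 0.27), and its other 2 probes gave 0.35 and 0.44.

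In all, 8 of the 54 genes had more than 1 probe, and in 4 of them the probes lay on different sides of an unadjusted p of 0.05. Besides Cyp4v3 and Cyp4f39 these were Cyp4f14, with -0.33 at the brighter probe and -1.07 at the other, and Cyp2d9, whose second probe lay at the floor on 5 of 10 arrays and is given no fold. Another 6 probes were annotated to several genes, with a symbol of these families among them, and were not read.

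Between the lowest and the highest of the 10 mice, the genes spanned a median of 2.77-fold, from 1.35-fold to 36.7-fold, and 46 of 54 spanned less than 4-fold. The smallest span was that of Cyp3a16, which lay at the floor on 5 arrays, so the floor limits it. The median SD within groups was 0.44 for the 54 genes and 0.41 for all probes. After Cyp2b9 the widest spans were those of Cyp2b10 (9.99-fold) and Cyp2b13 (6.90-fold, with 3 saline livers at the floor). The list of female-biased members, 7 of 9 measured, held both directions, with 4 higher, 3 lower and a median of 0.065, from -0.66 in Cyp2c40, named after its values were seen, to 1.28 in Cyp2b9.

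**Figure D5:**
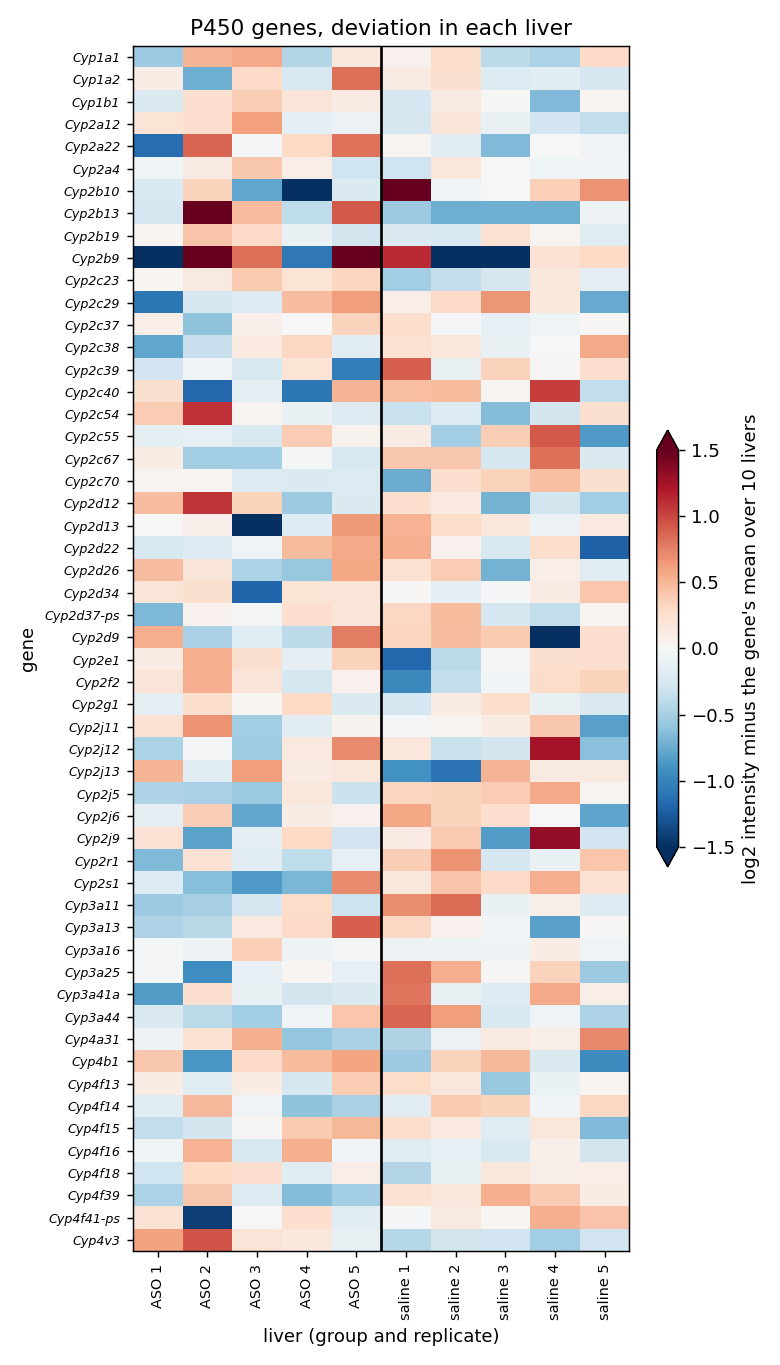
Deviation of each of the 54 P450 genes (rows) from its mean over the 10 livers, in log2 units by colour, with the 5 ASO livers left of the black line and the 5 saline livers right of it. No block of rows separates the groups, Cyp2b9 and Cyp2b10 have strong colours in single livers of both groups and Cyp2b13 in ASO livers, and saline replicate 1 is above the mean in Cyp3a11, Cyp3a25, Cyp3a41a and Cyp3a44.

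Genes that serve or control the P450s were also without a call. The list of electron donors and related haem-binding partners had 6 measured genes, and P450 reductase was not among them. Of the 6, 3 were higher and 3 lower with a median of -0.26. At an unadjusted p under 0.05 there were 2, both lower (33.3%, against 11.2% of all probes, 6.66% lower). These were Pgrmc2 (-0.77, SE 0.32, and -0.51 without ASO replicate 4) and Pgrmc1 (-0.67, SE 0.30, and -0.37 without ASO replicate 2), membrane proteins that bind haem and P450s, and Cyb5r3, cytochrome b5 reductase, had -0.61 (SE 0.32). Of 11 genes of haem synthesis and breakdown 3 were higher and 8 lower, with a median of -0.20 and 1 in each direction at an unadjusted p under 0.05 (18.2%, against 11.2% of all probes). Fech, which inserts iron into the haem ring, had -0.77 (SE 0.33), Cpox, an earlier enzyme of the pathway, 0.59 (SE 0.26), and Ppox, which follows it, -0.66 (SE 0.32). In limma 0 genes of either list passed after adjustment.

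Of 21 receptors and factors that control P450 genes, 12 had higher and 9 lower values in ASO livers (median 0.043), and 0 passed after adjustment in limma, with 1 higher and 2 lower at an unadjusted p under 0.05 (14.3%, against 11.2% of all probes). Those 3 were Onecut1, a hepatocyte transcription factor (1.18, SE 0.31), Nr0b2, the corepressor SHP (-1.43, SE 0.46), and Bcl6, a repressor that takes part in sex-biased liver expression (-2.07, SE 0.56). Bcl6 had a limma adjusted p of 0.237, and of 0.0114 with a log2 fold change of -2.70 without saline replicate 4. The 4 AhR-responsive genes outside the P450s, with Tiparp at 0.30 (SE 0.21), Ahrr at -0.24 (SE 0.24) and Aldh3a1 at -0.046 (SE 0.17), had a median of -0.040. The 9 CAR- and PXR-responsive genes outside the P450s had 1 higher and 8 lower, a median of -0.33 and 2 lower at an unadjusted p under 0.05 (22.2%, against 11.2% of all probes). These were Abcc3, an exporter of conjugates (-0.82, SE 0.25), and Sult1e1, oestrogen sulfotransferase (-0.76, SE 0.29, at the floor in 2 ASO livers and -2.50 with no floor), and Gstm3, a glutathione transferase, had -0.56 (SE 0.29).

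The P450s of family 5 and above, which make bile acids, sterols and steroid hormones, gave a wider range of values. Of 17 measured, 8 were higher and 9 lower with a median of -0.059, and 1 was higher and 4 lower at an unadjusted p under 0.05 (29.4%, against 11.2% of all probes), while 0 passed after adjustment in limma. Cyp39a1, which hydroxylates 24-hydroxycholesterol, had -1.54 (SE 0.32, limma adjusted p = 0.134) and was the 1 gene of this list without overlap between the groups (5.88%, against 2.37% of all probes). With only probes above the median level tested, its adjusted p was 0.0458. Cyp8b1, the sterol 12-alpha-hydroxylase of cholic acid synthesis, had -1.17 (SE 0.43), and Cyp51, lanosterol demethylase, -0.75 (SE 0.26). A second probe of Cyp51 was higher in ASO livers, so its direction depends on the probe. The difference between these genes and families 1 to 4 was not tested.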

How the data were processed

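Liver RNA of 10 mice was measured on 1-colour CodeLink arrays, 1 array per mouse, with biotin-labelled RNA, per the labels' protocols. The deposited values are linear intensities, with array medians of 1.03 to 1.05 and some values at or below 0; the authors' software and scaling were not stated in those labels, and background subtraction is likewise not given in the sources used here. The number of arrays limits the precision.

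Of 36227 probes, 139 with fewer than 3 values in a group were left out. Values under a floor of 0.192, the 10th percentile of the positive intensities, were raised to the floor before taking log2. Symbols came from the platform annotation, updated by Entrez ID through a gene table of GRCm38.p6 (21487 matched, 0 changed). Of 64 single-gene member probes, 63 were tested. Differences are ASO minus saline, fitted with limma 3.58.1 in R 4.3.3 over all 36088 probes, two-sided, without covariates, since the labels name no batch. The procedure was tested on simulated data. The p-values set the difference between groups against the spread within groups, as estimated by limma. Every mouse had its own array, so that spread holds differences between arrays as well as between mice.

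The members and gene lists were chosen with earlier results of these data known. Named genes were, per subfamily, the one with the highest mean and the one with the smallest p, plus textbook members, and up to 3 genes with the smallest p of each list without members; Cyp2c40, Cyp2c70 and Cyp2d9 were added with their values in view. The lists that were used covered P450 partners, haem, receptors, their targets, other P450s and cell type markers. Alternatives were other normalizations, floors, filters, variance models, probe choices and leaving out each array. A comparison of member proteins was planned and not run.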

Additional observations from a re-analysis of the deposited data

Results flagged for a closer look

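In 9 of 110 groups of 5 livers, over the 54 genes and their median, 1 liver lay far from the other 4. Chance gives about 1 in 20 such groups. ASO replicate 2 was the low liver for Cyp3a25 (6.92, others 7.73 to 7.89), Cyp4b1 (3.76, others 4.92 to 5.22) and Cyp4f41-ps (-2.38, at the floor). ASO replicate 3 was the low liver for Cyp2d34 (6.91, others 8.29 to 8.34) and the high one for Cyp3a16 (-1.94). Among saline livers, replicate 4 was low for Cyp2d9 (6.78, others 8.70 to 8.90) and high for Cyp3a16 (-2.19), replicate 1 was low for Cyp2c70 (7.80, others 8.78 to 8.99) and replicate 3 was low for Cyp2a22 (-0.43). Cyp3a16 lay at or near the floor on all 10 arrays.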

How the results depend on the processing

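No P450 gene of families 1 to 4 passed the adjusted threshold under any of the 19 alternatives, where the smallest adjusted p of a member was 0.123 (Cyp2s1 without ASO replicate 5). Leaving out 1 array at a time gave 4 to 10 genes at an unadjusted p under 0.05 (7.84% to 14.3% of all probes), a median log2 fold change of -0.063 to 0.059, 24 to 32 genes lower and 1 to 4 genes without overlap (2.91% to 4.80% of all probes), where smaller groups overlap less by construction. The count without overlap was 3 without ASO replicates 2 or 4, 2 without ASO replicate 5 or saline replicates 1 or 4, and 4 without saline replicate 5. It was 0 with second probes. Of 46 named genes, 10 changed sign in some alternative and 2, Cyp39a1 and Bcl6, gained a call. Without single arrays Cyp1a1 ran from -0.026 to 0.25, Cyp1a2 from -0.089 to 0.30, Cyp2c29 from -0.39 to 0.072, Cyp2d26 from -0.10 to 0.22, Cyp2d9 from -0.31 to 0.23, Cyp4f15 from -0.046 to 0.21 and Aldh3a1 from -0.13 to 0.022. With quantile normalization Aldh3a1 was 0.082 and with cyclic loess 0.083, and with array weights Cyp2d26 was -0.013 and Cyp2d9 -0.023. With the second probe Cyp4a31 was 0.35, Cyp4f39 0.13 and Cyp51 0.42, and Cyp4a31 was 0.21 as the mean of its probes. The cause of these changes was not tested.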
